A study of Mus musculus with 2 samples.

Results

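A set of 10 heat shock genes was followed through the cells of the adult mouse testis: Hspa2, Hspa1l, Hspa1a, Hspa1b, Hspa8, Hspa4l, Hsp90aa1, Hsp90ab1, Hsph1 and Hspb9. They were chosen by gene symbol, as testis forms beside ubiquitous and stress-induced forms, and are 10 of the 31053 genes in the deposited tables. The measurements are single-cell RNA libraries of 8-month-old testes, 1 from an Igf2bp1 knockout (Igf2bp1 KO, a conditional knockout per the design text) and 1 from Wild type. The design text counts 2 mice in all. Neither the Cre driver nor the exons it removes are named in the sources used. With 1 library per genotype there is no replicate check: every interval below is a 95% interval for counting error only, and no p-value is given. IGF2BP1 is an RNA-binding protein that can protect bound messages from decay.

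Heat shock proteins are chaperones that help other proteins to fold, and many also hold clients ready for activation. HSP70 proteins bind unfolded stretches in a cycle of ATP binding and release, HSP110 proteins such as those of Hspa4l and Hsph1 exchange their nucleotide, HSP90 proteins finish the folding of kinases and receptors, and small heat shock proteins hold unfolded clients without ATP. The testis is known for its own family members, switched on in meiosis and in spermatids without any heat stress, while the stress-induced forms of other tissues are kept low in these germ cells.

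The Igf2bp1 KO library held 17703 barcodes after filtering and the Wild type library 17002. Of these, 3680 and 5132 lay in clusters that could be named from marker genes, and each class name below stands for "-like" cells. The rest were low-UMI barcodes (8201 in Igf2bp1 KO and 11457 in Wild type, where UMIs are single counted molecules) or barcodes with mixed or unclear profiles (5822 and 413). Named cells had a median of 4796.5 UMIs in Igf2bp1 KO and 16651 UMIs in Wild type. The libraries shared 106 barcode sequences. A total of 5 classes had at least 50 cells in each library and were compared between genotypes: spermatogonia (60 and 91 cells), late spermatocytes (366 and 1227), round spermatids (377 and 1013), elongating spermatids (895 and 1900) and Sertoli cells (902 and 751). Levels are in CPM, the usual scaling of a UMI count by the total count of its class. Low-UMI barcodes carry RNA that was free in the suspension, so their level in each library serves as the background for every gene. It gives the makeup of free RNA, not its amount in a named cell, so a level under it is not by itself absence. The heat shock genes were left out of clustering. Each of the 5 classes held at least 1 UMI of every marker of its own list, 12 for each germ class and 14 for Sertoli cells. That does not set the classes apart: late spermatocytes of each library also held all 12 spermatogonial and all 14 Sertoli markers by this count. The makeup of the libraries differed outside the germ line: Leydig cells numbered 336 in Igf2bp1 KO and 42 in Wild type, and B cells 340 and 0.

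Igf2bp1 itself was lower in knockout spermatogonia, the class where it was densest. Its level there was 27.9 CPM (95% interval 15.6 to 46.0) in Igf2bp1 KO, from 15 UMIs in 60 cells, against 64.8 CPM (48.96 to 84.2) in Wild type, from 56 UMIs in 91 cells. The log2 ratio was −1.22 (−2.15 to −0.37). Low-UMI barcodes held 2.39 CPM in Igf2bp1 KO and 3.53 CPM in Wild type, so the knockout spermatogonia were above the background. Since the removed exons are unknown, 3′ tags of a truncated transcript may still be counted.

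Through the germ line 8 of the genes had enough UMIs to follow, and among the classes with at least 50 cells each peaked in the same germ class in the libraries except Hsph1. Hspa8 and Hsp90ab1 were dense in spermatogonia and thinned out from there. Hspa2 and Hsp90aa1 were densest in late spermatocytes among those classes. Hspb9 stood high from late spermatocytes onward, and Hspa4l and Hspa1l were densest in elongating spermatids. Hspa1a and Hspa1b had few UMIs in germ cells and were found in macrophages and mesenchymal cells.

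**Figure D1:**
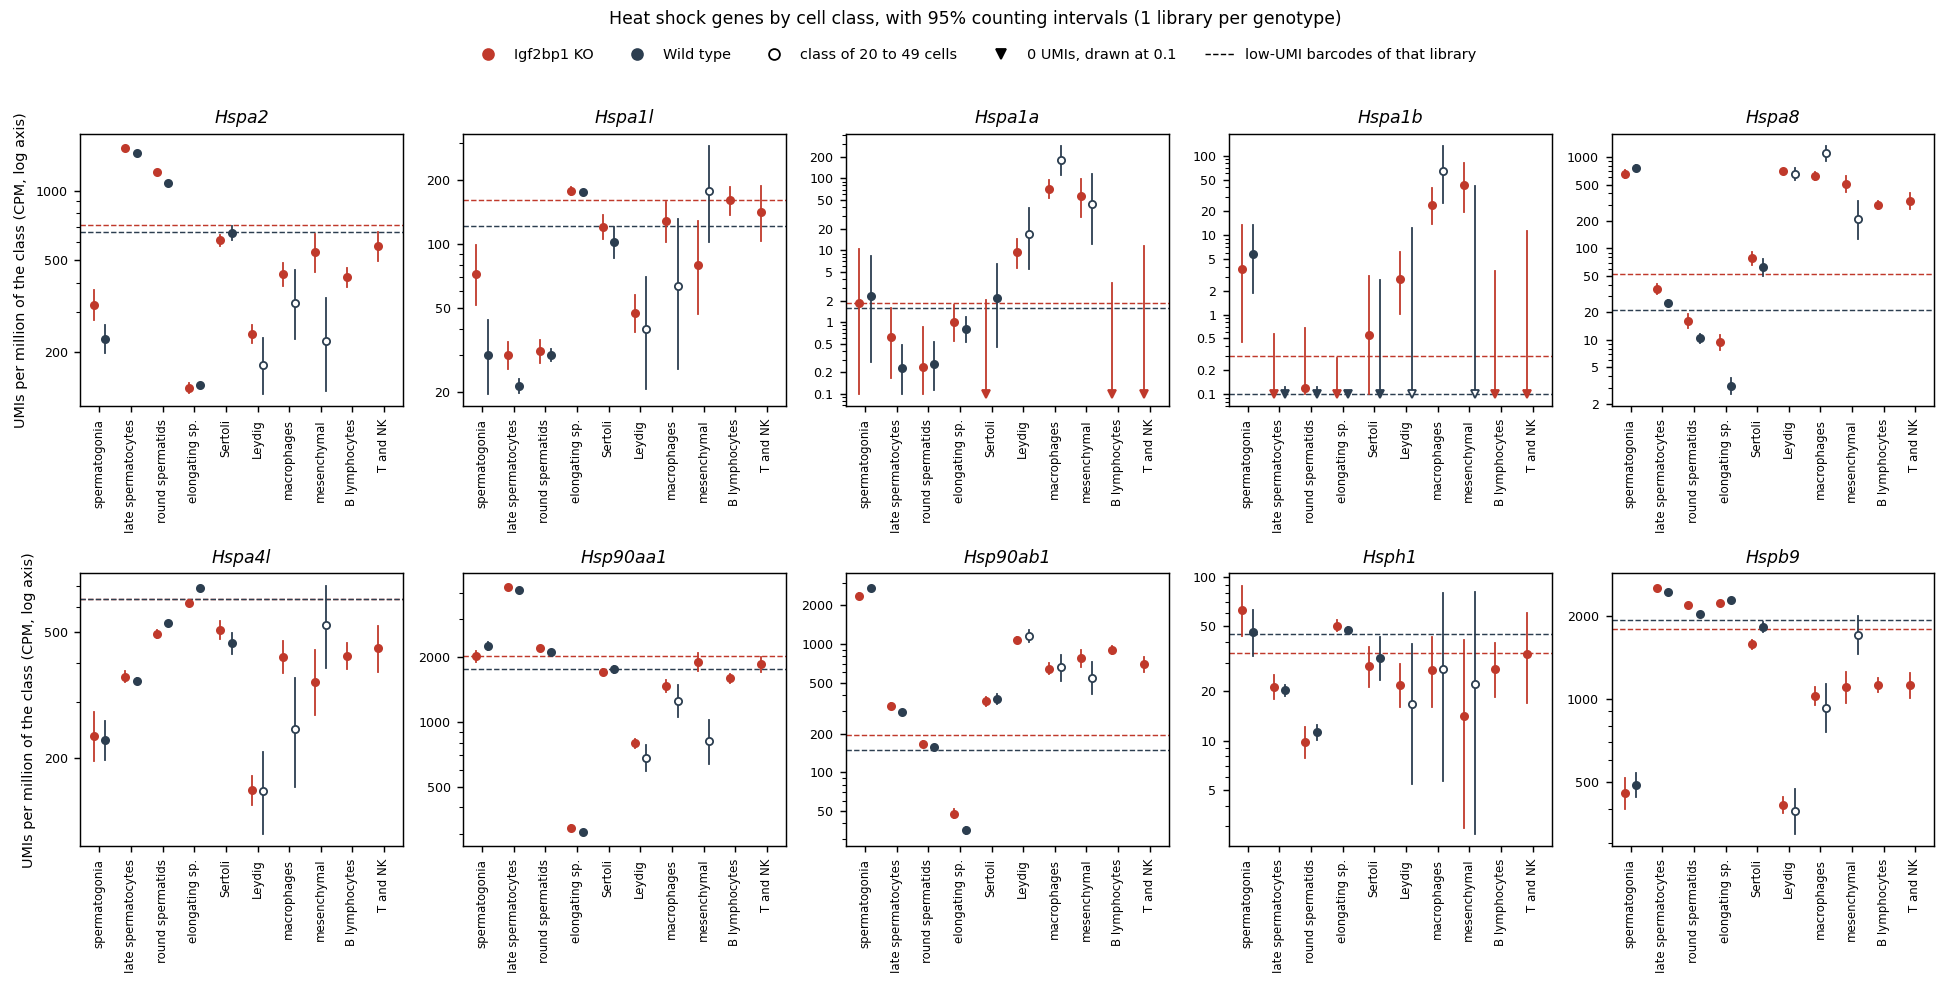
Level of each of the 10 heat shock genes by cell class (vertical, CPM on a log axis; horizontal, classes; points, 1 library each; open points, classes of 20 to 49 cells; triangles, 0 UMIs, drawn at 0.1; bars, 95% counting intervals; dashed lines, low-UMI barcodes). Hsp90ab1 stood at 2382 and 2724 CPM in spermatogonia and at 47.4 and 35.2 CPM in elongating spermatids of Igf2bp1 KO and Wild type, while Hspa1a stood over the background in macrophages and mesenchymal cells.

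Hspa8 encodes HSC70, the HSP70 protein that most cells make all the time. In spermatogonia it stood at 655 CPM (588 to 727) in Igf2bp1 KO and 759 CPM (702 to 820) in Wild type, far above the low-UMI barcodes at 52.0 and 21.4 CPM. Late spermatocytes held 35.99 CPM in Igf2bp1 KO and 25.3 CPM in Wild type. Round spermatids had 16.0 and 10.4 CPM, and elongating spermatids had 9.43 and 3.12 CPM. The intervals of these 4 germ classes did not overlap within a library, so each step down was larger than the counting error. From late spermatocytes on, apart from the Wild type late spermatocytes, the level lay under that of the low-UMI barcodes of the same library. Between spermatogonia and late spermatocytes lay a sub-cluster led by Stra8, the gene of meiotic entry, which was left unnamed. It held 505 CPM of Hspa8 in 74 cells of Igf2bp1 KO and 549 CPM in 117 cells of Wild type. In Igf2bp1 KO the highest class was Leydig cells, the makers of testosterone, at 708 CPM (673 to 745), which overlapped spermatogonia and macrophages (623 CPM, 564 to 686).

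Hspa8 counts need care. Of the 310 windows of 91 bases in the last 400 bases of its transcript, 73.2% also occur in annotated transcripts of 7 other genes, led by Gm15459, Gm8355 and Gm6210. Reads from such windows cannot be placed with certainty, so the level of Hspa8 is uncertain, in each library alike. None of the other 9 genes shared such a window with another gene, Hspa1a and Hspa1b included.

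Hsp90ab1, the constitutive HSP90 gene, followed the same course at the level of the class. It stood at 2382 CPM (2254 to 2516) in spermatogonia of Igf2bp1 KO and 2724 CPM (2615 to 2837) in those of Wild type. Late spermatocytes had 330 and 295 CPM, round spermatids 165 and 158 CPM, and elongating spermatids 47.4 and 35.2 CPM. Leydig cells came next to spermatogonia, with 1083 CPM (1039 to 1128) in Igf2bp1 KO, and the 42 Wild type Leydig cells held 1159 CPM. Sertoli cells, the supporting cells of the tubule wall, had 357 and 371 CPM, above the low-UMI levels of 195 and 149 CPM.

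Its partner Hsp90aa1 encodes HSP90 alpha, which mouse spermatocytes are known to need to complete meiosis. Among classes with at least 50 cells it was densest in late spermatocytes, at 4249.8 CPM (4199.8 to 4300.4) in Igf2bp1 KO and 4108 CPM (4086 to 4131) in Wild type. The 33 early spermatocytes of Wild type held 4222 CPM (3995 to 4458), which overlapped the late class. Within the late class the cluster led by Mllt10, Cks2 and Piwil1, Piwil1 being the piRNA-binding protein of pachytene cells, held 5156 CPM in Igf2bp1 KO and 5465 CPM in Wild type. By mean marker score that cluster was near a tie, at 0.927 for early and 0.898 for late spermatocytes. The later cluster, led by the division kinase Aurka, held 3586 and 3541 CPM. Round spermatids had 2209 and 2119.6 CPM, and elongating spermatids 321 and 308 CPM. Spermatogonia stood between, at 2023 and 2254 CPM, near the low-UMI levels of 2026 and 1773 CPM.

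Hspa2 is the HSP70 gene of meiosis, whose loss in mice is known to stop spermatocytes and cause male infertility. Late spermatocytes held 1529.9 CPM in Igf2bp1 KO and 1461 CPM in Wild type, from 9905 and 44228 UMIs. The level was 1211 and 1078 CPM in round spermatids. In elongating spermatids it was 140 CPM (134 to 147) in Igf2bp1 KO and 144 CPM (140 to 148) in Wild type. The 33 early spermatocytes of Wild type already held 1116 CPM (1001 to 1241), against 229 CPM (198 to 263) in Wild type spermatogonia, while the 5 early spermatocytes of Igf2bp1 KO are too few to describe. In spermatogonia and in every somatic class of each library the level was at or under the low-UMI barcodes. These stood at 711 CPM in Igf2bp1 KO and 661 CPM in Wild type, so such values could not be told from background.

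Hspb9, a small heat shock gene known almost only from the testis, did not fall away with the other meiotic genes. It stood at 2523 CPM in late spermatocytes, 2182 CPM in round spermatids and 2225 CPM in elongating spermatids of Igf2bp1 KO. The same classes of Wild type held 2425, 2033 and 2269 CPM. Within elongating spermatids it dipped and came back: the first cluster, led by Hemgn and Cst13, held 1513 and 1519 CPM in Igf2bp1 KO and Wild type, and the last, led by genes that include the protamine Prm2, held 2676 and 2787 CPM. By mean marker score the first cluster was near a tie, at 0.615 for elongating and 0.504 for round spermatids. A cluster led by the same genes was named round spermatids when the heat shock genes were allowed in clustering. In spermatogonia Hspb9 stood at 456 and 488 CPM, under the low-UMI levels of 1795 and 1936 CPM. Its values of 1576 and 1818 CPM in Sertoli cells were under those levels too.

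Hspa4l encodes an HSP110 protein that is abundant in the testis, where its loss in mice is known to lower fertility. Over the 4 germ classes with at least 50 cells its level stepped up with each class, while the 33 early spermatocytes of Wild type held 449 CPM (377 to 531), above the late spermatocytes. Spermatogonia had 234 CPM in Igf2bp1 KO and 227 CPM in Wild type, late spermatocytes 361 and 351 CPM, round spermatids 492 and 532 CPM, and elongating spermatids 616 CPM (603 to 630) and 691 CPM (682 to 700). The low-UMI barcodes held 637 and 634 CPM, close to the elongating class. Only the Wild type elongating spermatids passed that level, which does not give the amount of free RNA in the other classes.

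Hspa1l, the HSP70 gene of spermatids, stayed low through meiosis and came on in the elongating class. It stood at 29.97 and 21.4 CPM in late spermatocytes of Igf2bp1 KO and Wild type, and at 31.3 and 30.1 CPM in round spermatids. In elongating spermatids it reached 178 CPM (170 to 185) in Igf2bp1 KO and 176 CPM (172 to 181) in Wild type. Inside that class it stood at 121 and 112 CPM in the first cluster, 178 and 168 CPM in the middle cluster led by Tex37 and the transition protein Tnp2, and 195 and 206 CPM in the last. The low-UMI barcodes had 161 and 122 CPM, and no somatic class with at least 50 cells was above them by more than its counting interval.

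Hsph1 encodes HSP105, an HSP110 protein of most tissues that is also induced by heat. It had 2 high places in the germ line with a low between them. Spermatogonia held 63.2 CPM (43.8 to 88.4) in Igf2bp1 KO and 46.3 CPM (33.1 to 63.0) in Wild type. Round spermatids held 9.82 CPM (7.81 to 12.2) and 11.3 CPM (10.1 to 12.5). The first elongating cluster, near a tie with round spermatids by its markers, then stood at 79.8 CPM (67.0 to 94.4) in Igf2bp1 KO and 71.9 CPM (65.6 to 78.8) in Wild type. These values were above the low-UMI levels of 34.1 and 44.8 CPM, and the last elongating cluster was back at 34.7 and 27.4 CPM. The spermatogonia of Wild type overlapped their low-UMI level, and those of Igf2bp1 KO lay above theirs. In Igf2bp1 KO the highest cluster of Hsph1 was the smaller spermatogonial one, at 121 CPM (64.7 to 208) from 13 UMIs in 15 cells, against 37.2 CPM (16.0 to 73.2) in the 22 Wild type cells.

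**Figure D2:**
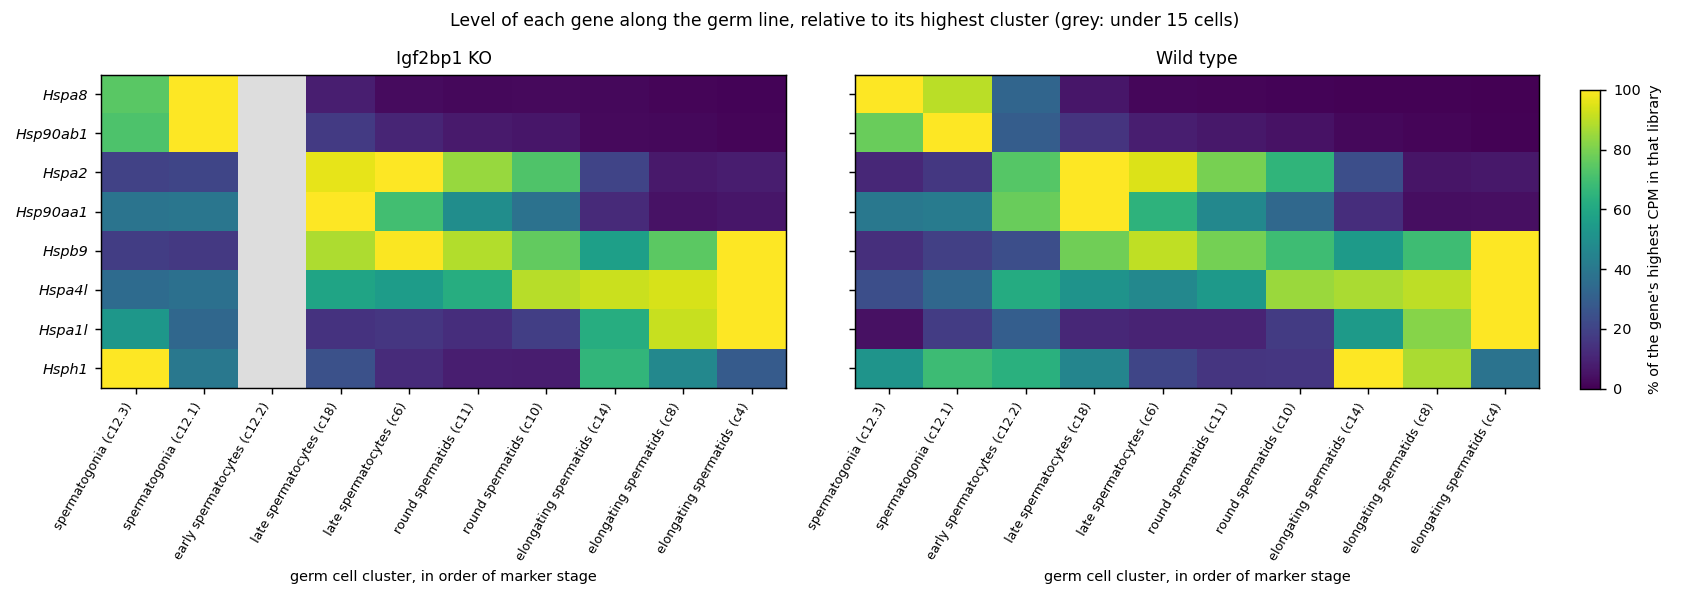
Level of 8 heat shock genes in each named germ cell cluster (rows, genes; columns, clusters in order of marker stage; colour, percent of the gene's highest cluster CPM in that library; left, Igf2bp1 KO; right, Wild type). The bright cells move from spermatogonia for Hspa8 and Hsp90ab1, through late spermatocytes for Hspa2 and Hsp90aa1, to elongating spermatids for Hspa4l and Hspa1l. Hsph1 is highest in a spermatogonial cluster of 15 cells in Igf2bp1 KO and in the first elongating cluster in Wild type, and grey marks a cluster under 15 cells.

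Hspa1a and Hspa1b are the stress-induced HSP70 genes, near-identical copies on chromosome 17. Hspa1a lies at chr17:34969190-34972156 on the minus strand and Hspa1l at chr17:34972703-34979285 on the plus strand, head to head with 546 bases between their starts. Hspa1b lies beside them at chr17:34956436-34959238 on the minus strand (GENCODE mouse annotation, GRCm38, the assembly of mm10). The 250 bases before each start are shown because these neighbours were seen in different cells: Hspa1l in elongating spermatids, Hspa1a and Hspa1b in macrophages and mesenchymal cells. The sequences are RefSeq's on GRCm38.p6, where 7 of the 10 genes had an entry, and run 5′ to 3′ on the gene's own strand. They lie at chr17:34972453-34972702 for Hspa1l, chr17:34972157-34972406 for Hspa1a and chr17:34959239-34959488 for Hspa1b, outside the annotated exons of these genes. Capitals mark GAANNTTC, a paired unit of the heat shock element that heat shock factors bind, and TGACGT, the core of the cAMP response element.
Hspa1l: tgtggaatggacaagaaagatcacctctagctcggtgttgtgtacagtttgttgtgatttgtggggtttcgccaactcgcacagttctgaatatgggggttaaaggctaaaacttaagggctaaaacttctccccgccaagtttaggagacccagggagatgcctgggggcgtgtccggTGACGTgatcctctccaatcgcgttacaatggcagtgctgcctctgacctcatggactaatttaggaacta
Hspa1a: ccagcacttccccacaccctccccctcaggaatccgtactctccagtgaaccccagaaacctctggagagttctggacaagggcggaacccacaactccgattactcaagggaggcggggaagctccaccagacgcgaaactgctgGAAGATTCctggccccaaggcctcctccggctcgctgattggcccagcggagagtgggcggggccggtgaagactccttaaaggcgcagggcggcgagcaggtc
Hspa1b: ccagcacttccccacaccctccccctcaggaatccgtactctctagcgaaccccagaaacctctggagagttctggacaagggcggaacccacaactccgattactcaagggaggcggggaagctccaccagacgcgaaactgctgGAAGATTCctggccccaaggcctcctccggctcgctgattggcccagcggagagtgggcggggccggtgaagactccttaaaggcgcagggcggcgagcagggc

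The windows of Hspa1a and Hspa1b differed at 3 of 250 bases, and each held GAANNTTC once, starting 104 bases before the gene's start. The window of Hspa1l held neither GAANNTTC nor TTCNNGAA, the other pairing of the unit, and held TGACGT once. Among all 32851 promoter windows of this length, 12.8% held GAANNTTC or TTCNNGAA and 6.47% held TGACGT on either strand (each of the paired units is its own reverse complement). All 3 windows held CCAAT, as did 33.8% of all windows. A match is a description of the letters and not evidence of binding.

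In germ cells the stress-induced copies had few UMIs. Spermatogonia were the germ class with the highest level: the summed pair stood at 5.58 CPM (1.15 to 16.3) in Igf2bp1 KO, from 3 UMIs, and at 8.10 CPM (3.26 to 16.7) in Wild type, from 7 UMIs. The low-UMI barcodes held 2.17 and 1.59 CPM of the pair, so the Wild type interval lay above its background and the Igf2bp1 KO interval did not. Hspa1b alone had 3.72 CPM (0.450 to 13.4) in Igf2bp1 KO and 5.79 CPM (1.88 to 13.5) in Wild type, against 0.299 and 0 CPM in low-UMI barcodes. Late spermatocytes had 4 UMIs of Hspa1a in 366 cells of Igf2bp1 KO and 7 UMIs in 1227 cells of Wild type, or 0.618 and 0.231 CPM. Elongating spermatids had 1.013 CPM (0.539 to 1.73) in Igf2bp1 KO and 0.801 CPM (0.528 to 1.17) in Wild type. The low-UMI barcodes held 1.87 and 1.59 CPM, so the values of late and elongating cells could not be told from background. Hspa1b had 0 UMIs in the late spermatocytes and the elongating spermatids of each library, which by a limit of 3 counts, lower than the upper end of the 95% interval, allows up to 0.463 CPM in the late spermatocytes of Igf2bp1 KO and 0.0991 CPM in those of Wild type. Sertoli cells had 0 UMIs of Hspa1a in Igf2bp1 KO, allowing up to 1.65 CPM by the same limit, and 3 UMIs in Wild type.

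Macrophages were the class where Hspa1a was most often seen. The 202 macrophages of Igf2bp1 KO held 72.4 CPM (53.4 to 95.9) of Hspa1a and 24.1 CPM (13.8 to 39.2) of Hspa1b. The 42 macrophages of Wild type, too few to be compared here, held 182 CPM (111 to 281) and 63.8 CPM (25.6 to 131). Mesenchymal cells of the interstitium had 56.5 CPM (29.2 to 98.7) of Hspa1a and 42.4 CPM (19.4 to 80.4) of Hspa1b in 80 cells of Igf2bp1 KO, and 44.6 CPM and 0 UMIs in 28 cells of Wild type. By mean marker score this cluster was near a tie, at 2.796 for interstitial mesenchymal and 2.503 for myoid and smooth muscle cells. Acta2 and Tagln, on the myoid marker list, were among its leading genes. Macrophages and mesenchymal cells did not differ beyond their intervals in either gene in Igf2bp1 KO. Leydig cells of Igf2bp1 KO stood lower, at 9.35 CPM (5.71 to 14.4) of Hspa1a, and the lymphocytes of that library had 0 UMIs of Hspa1a and Hspa1b in 340 B cells and 117 T and NK cells. A UMI of Hspa1a was found in 15.8% of the Igf2bp1 KO macrophages, at a median of 2945 UMIs per cell, and in 0.293% of the low-UMI barcodes, at a median of 1481. With every cell thinned to 1000 UMIs the shares were 6.60% and 0.165%. Hspa1a overlaps Gm20481 on the other strand and Hspa1l overlaps Gm10501, and no source used states whether counting was by strand. Over all barcodes Gm20481 had 34 UMIs in Igf2bp1 KO and 60 in Wild type, beside 307 and 112 of Hspa1a. Gm10501 had 98 and 136, beside 11442 and 10525 of Hspa1l.

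Immediate early genes, which respond to handling and dissociation within minutes, were set beside them. Summed over a list of 17, they stood at 12577 CPM in Igf2bp1 KO macrophages, 16707 CPM in mesenchymal cells, 9788 CPM in Leydig cells, 2852 CPM in T and NK cells and 1739.97 CPM in B cells. In spermatogonia they stood at 785 CPM in Igf2bp1 KO and 627 CPM in Wild type, above the low-UMI levels of 535 and 293 CPM. In late spermatocytes they stood at 171 and 102 CPM, under those levels. Their part in the levels of Hspa1a and Hspa1b was not tested.

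**Figure D3:**
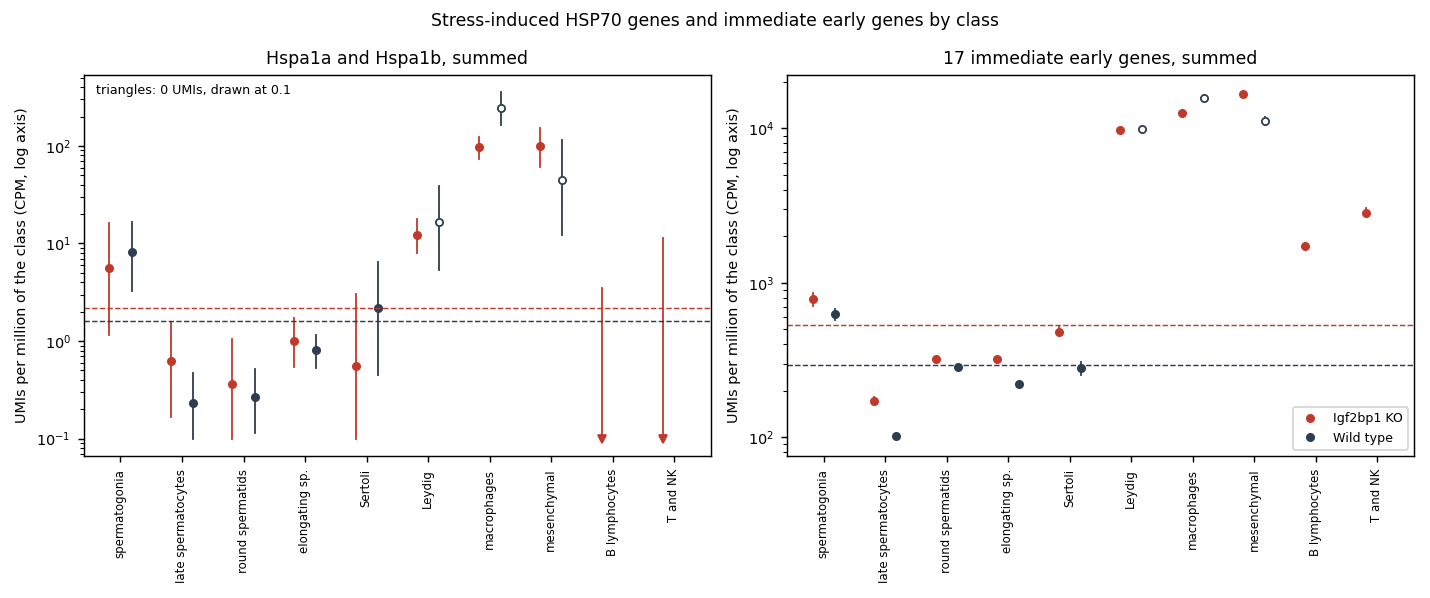
Summed level of Hspa1a and Hspa1b (left panel) and of 17 immediate early genes (right panel) by class (vertical, CPM on a log axis; points, 1 library each; bars, 95% counting intervals; open points, classes of 20 to 49 cells; dashed lines, low-UMI barcodes; triangles, 0 UMIs, drawn at 0.1). Igf2bp1 KO macrophages and mesenchymal cells stood at 96.5 and 98.9 CPM of the summed HSP70 pair, and Leydig cells at 12.2 CPM.

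The knockout was then set against Wild type, gene by gene and class by class. The 10 genes in 5 classes make 50 pairs, of which 40 had at least 50 UMIs over the libraries. The other 10 are Hspa1a and Hspa1b in each class. A pair was called when the CPM ratio was at least 1.5-fold either way. By that rule 3 of the 40 pairs were higher in Igf2bp1 KO, 0 were lower and 37 lay within 1.5-fold. The called pairs were Hspa1l in spermatogonia, Hspa8 in round spermatids and Hspa8 in elongating spermatids. With 1 library per genotype there is no p-value to set beside the count of 0, which was also 0 with TMM and with median-of-ratios scaling.

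In spermatogonia 1 of the 8 measured heat shock genes was higher and 0 were lower, while 5.67% of all 5148 genes measured there were higher and 6.22% lower by the same rule. Hspa1l stood at 72.5 CPM (51.6 to 99.1) in Igf2bp1 KO, from 39 UMIs, against 30.1 CPM (19.7 to 44.1) in Wild type, from 26 UMIs, a log2 ratio of 1.27 (0.52 to 2.04). A UMI of it was found in 46.7% of knockout and 26.4% of Wild type spermatogonia, at median depths of 8618.5 and 8579 UMIs, and in 23.0% and 13.8% of low-UMI barcodes at 1481 and 1121 UMIs. Thinned to 1000 UMIs the shares were 7.53% and 3.24% in spermatogonia, under the 15.1% and 11.7% of the low-UMI barcodes. The level in CPM was likewise under the background of 161 and 122 CPM. The ratio was 1.40 with a set 5% of free RNA taken off and 0.17 when each cell was named by its own markers. For germ classes that 5% of the UMIs in each library was fixed beforehand and not estimated, and a larger share was not tested. The 12 elongating spermatid markers summed to 17304 and 18768 CPM in spermatogonia of Igf2bp1 KO and Wild type. In the low-UMI barcodes they summed to 55280 and 72978.5 CPM. Counting a deep protamine-bearing sub-cluster of 4 and 30 cells as spermatogonia moved Hspa2 to −0.76 and Hspb9 to −1.14. The other 7 genes ran from −0.21 for Hspa8 to 0.49 for Hspa2 on the log2 scale. Their number holds the densest genes of the class: Hsp90ab1 differed by −0.19 (−0.29 to −0.09) and Hsp90aa1 by −0.16 (−0.26 to −0.05).

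In late spermatocytes all 8 measured genes lay within 1.5-fold, where 5.61% of all 12059 genes were higher and 4.80% lower. Hsp90aa1 differed by 0.05 (0.03 to 0.07), Hspb9 by 0.06 (0.03 to 0.08) and Hspa2 by 0.07 (0.04 to 0.10). Hspa1l at 0.49 (0.25 to 0.72) and Hspa8 at 0.51 (0.29 to 0.72) differed most. Hspa1l was under the low-UMI level in each library.

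In round spermatids 1 of 8 was higher and 0 were lower, beside 3.77% and 4.39% of all 12088 genes. Hspa8 held 134 UMIs in Igf2bp1 KO and 315 in Wild type, or 16.0 CPM (13.4 to 19.0) against 10.4 CPM (9.31 to 11.6), a log2 ratio of 0.62 (0.32 to 0.92). It missed the 1.5-fold limit with median-of-ratios scaling (0.57), with equal cluster weights (0.57) and with free RNA taken off (0.50), and was 1.64 when each cell was named by its own markers. In elongating spermatids 1 of 8 was higher and 0 were lower, beside 5.22% and 2.89% of all 10668 genes. Hspa8 held 121 UMIs in Igf2bp1 KO and 105 in Wild type, or 9.43 CPM (7.82 to 11.3) against 3.12 CPM (2.55 to 3.77), a log2 ratio of 1.60 (1.21 to 1.99). With the set 5% of free RNA taken off the ratio was 1.79, and a larger share was not tested. Hspa8 was higher in each of the 3 elongating clusters, with 14.7, 9.73 and 7.48 CPM in Igf2bp1 KO against 3.39, 3.39 and 2.83 CPM in Wild type. These levels are all under the low-UMI levels of 52.0 and 21.4 CPM, which differ the same way.

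Some lists of somatic markers also differed between the libraries, in these spermatids and in the other germ classes. The 10 Leydig markers summed to 98.9 CPM in round spermatids of Igf2bp1 KO and 7.84 CPM in those of Wild type, with 1 and 2 markers at 0. In elongating spermatids they summed to 107 and 12.5 CPM, and in low-UMI barcodes to 538 and 72.4 CPM. They summed to 225 and 17.4 CPM in spermatogonia and to 118 and 11.7 CPM in late spermatocytes. Hspa8 was not called in those 2 classes, at log2 ratios of −0.21 and 0.51. The 11 macrophage markers summed to 54.0 CPM in elongating spermatids of Igf2bp1 KO and 35.9 CPM in those of Wild type, with none at 0. In the same cells the 14 Sertoli markers summed to 122 and 40.3 CPM. Other lists were nearly level there: the 8 myoid markers summed to 451 and 448 CPM and the 9 endothelial markers to 14.9 and 14.5 CPM. Of the immediate early genes, 9 of 13 measured were higher in elongating spermatids (median log2 1.59) and 6 of 10 in round spermatids (1.44). Beyond the set 5% of free RNA taken off, the part of somatic cells' RNA in the Hspa8 values was not tested.

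The spermatid genes themselves were nearly level. In elongating spermatids Hspa1l differed by 0.01 (−0.06 to 0.08), Hspb9 by −0.03 (−0.05 to −0.01), Hspa2 by −0.04 (−0.12 to 0.04), Hsph1 by 0.10 (−0.04 to 0.23) and Hspa4l by −0.16 (−0.20 to −0.13). Hsp90ab1 came nearest to the limit without passing it, at 0.43 (0.28 to 0.57), and passed it in 2 alternatives, each cell named by its own markers (0.97) and the heat shock genes allowed in clustering (0.65). In Sertoli cells all 8 measured genes lay within 1.5-fold, between −0.21 for Hspb9 and 0.31 for Hspa8, beside 5.29% of 6485 genes higher and 5.04% lower. Free RNA was estimated at 89.99% of the UMIs of Sertoli cells in Igf2bp1 KO and 74.8% in Wild type from their protamine and transition protein transcripts, so this class says little about any gene at its background.

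**Figure D4:**
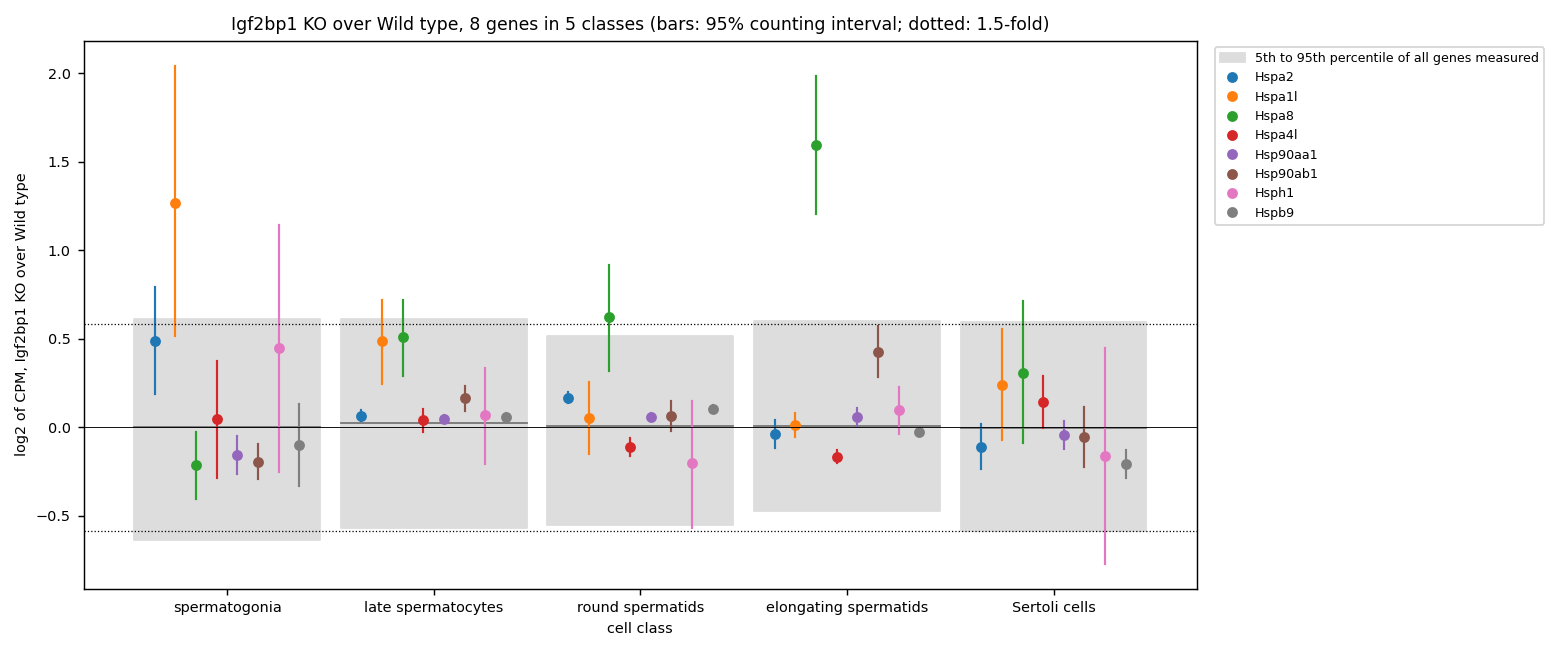
Log2 ratio of CPM, Igf2bp1 KO over Wild type, for 8 heat shock genes in 5 classes (points, ratio; bars, 95% counting interval; grey, 5th to 95th percentile of all genes measured in the class; dotted, 1.5-fold). Hspa1l in spermatogonia (1.27), Hspa8 in round spermatids (0.62) and Hspa8 in elongating spermatids (1.60) lie above the dotted line, and the other 37 points lie between the lines.

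Over the class, the median log2 ratio of the measured heat shock genes was −0.03 in spermatogonia, 0.07 in late spermatocytes, 0.06 in round spermatids, 0.04 in elongating spermatids and −0.05 in Sertoli cells. The medians of all genes in these classes were 0.00, 0.03, 0.01, 0.01 and −0.01. These are descriptions of the 2 libraries.

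The genes around them were counted in the same way. The shares of all genes called are given first, in order from spermatogonia through late spermatocytes, round spermatids and elongating spermatids to Sertoli cells. They were 5.67, 5.61, 3.77, 5.22 and 5.29% for higher and 6.22, 4.80, 4.39, 2.89 and 5.04% for lower. Of 30 co-chaperones of HSP70 and HSP90, 24 were measured in spermatogonia, of which 0 were higher and 2 lower: Chordc1, an HSP90-binding protein, with 26.0 CPM in Igf2bp1 KO and 41.7 CPM in Wild type (log2 −0.68, −1.68 to 0.25), and Ppid, a cyclophilin that binds HSP90, with 48.4 and 74.1 CPM (−0.62, −1.33 to 0.06). In late spermatocytes 1 of 28 was higher, Fkbp5, an HSP90-binding immunophilin, from 22 and 53 UMIs (log2 0.96, 0.17 to 1.70), under its low-UMI level. All 28 measured in round spermatids were within 1.5-fold, where Bag3, a partner of HSP70, came nearest with 9.46 and 14.2 CPM (−0.58, −0.95 to −0.23). In elongating spermatids 1 of 27 was higher, Ppp5c, a phosphatase that binds HSP90 (0.63, −0.13 to 1.36), also under its low-UMI level, and in Sertoli cells 2 of 22 were lower, Fkbp6 (log2 −0.68, −1.23 to −0.13) and Bag4 (−0.63, −1.33 to 0.05). The list's median log2 ratio was −0.23, −0.02, 0.03, 0.03 and −0.04 in the 5 classes, spermatogonia first and Sertoli cells last.

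Of 10 other HSP70, HSP110 and HSP90 genes, Hyou1 of the endoplasmic reticulum was lower in spermatogonia (33.5 CPM in Igf2bp1 KO and 57.9 CPM in Wild type, log2 −0.79, −1.65 to 0.01). Hspa13, another HSP70 gene, was higher in round spermatids with 17.7 and 10.4 CPM (0.77, 0.48 to 1.06). That was above its low-UMI levels of 14.5 and 8.66 CPM, which differ the same way. Hspa12b was higher in elongating spermatids from 21 and 32 UMIs, under its low-UMI level. The 7, 9, 7, 9 and 5 genes of this list measured in spermatogonia, late spermatocytes, round spermatids, elongating spermatids and Sertoli cells otherwise lay within 1.5-fold. Among small heat shock genes and the mitochondrial chaperonin, Hspb11 was lower in spermatogonia (46.5 and 86.8 CPM, −0.90), and the chaperonin genes Hspd1 (1.68, 0.83 to 2.54, from 28 and 23 UMIs) and Hspe1 (0.64, 0.25 to 1.02) were higher in elongating spermatids, with each level under the low-UMI barcodes. The heat shock factors and their binding proteins, the regulators of this family, gave 0 calls in any class over 3 to 5 measured genes. The shares of all genes given with the co-chaperones are the ones to set beside these lists too.

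The genes most like each heat shock gene over 15 sums of a class in a library were sought among 10400 genes, by Pearson's r of log2 CPM as a description, since the sums share 2 libraries and their depth. Hspa2 was most like Mrpl1 and Gkap1 (r = 0.99 each), and Hsp90aa1 was most like Cct3 and Cct5 (0.99 each), which encode subunits of the cytosolic chaperonin. Hspb9 was most like Crisp2 and Hrasls5 (0.99 each). Hspa1l was most like Spem2 (0.96) and Hspa4l most like Spa17 (0.97), a sperm protein. Hspa8 was most like Rac1 (0.98), Hsp90ab1 most like Psma2 (0.99), a proteasome subunit, and Hsph1 most like Psme3 (0.95), a proteasome activator. Hspa1a was most like Pmp22 (0.99) and Hspa1b most like Nav1 (0.97), and their likeness to each other was 0.94. These values rest mostly on the macrophages and mesenchymal cells of Igf2bp1 KO. The highest of the other sums held 9.35 CPM of Hspa1a and 5.79 CPM of Hspa1b. Hspa8 and Hsp90ab1 reached 0.92, Hspa2 and Hsp90aa1 0.84, and the neighbours Hspa1l and Hspa1a 0.15.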

How the data were processed

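The measurements are 10x Genomics single-cell RNA libraries of testis, 1 per genotype. Per the labels' protocols, tissue was digested with enzymes. The submitters' processing notes name Cell Ranger 2.2.0, STAR and the build mm10, and the file headers carry software version 3.1.0. The deposited values are raw UMI counts per gene and barcode, 98033324 in Igf2bp1 KO and 121257944 in Wild type, per the file headers and from their whole numbers. No source used says how the authors called cells.

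Barcodes with at least 500 UMIs, 250 genes and at most 20% mitochondrial UMIs were kept. The libraries were clustered together (2000 variable genes without the heat shock genes, 30 components, 15 neighbours, leidenalg 0.10.2 at resolution 1), and clusters were named from marker lists. The numeric limits of naming were set after seeing the clusters. A low-UMI cluster has a median under 2 times that of the lowest decile of barcodes, unless its markers stand over the background by 2 on the log2 scale. A mixed one has a spermatogonial or somatic best match with over 3 times the protamine of that decile, leading genes under 2-fold or of another class, or under 3 detected markers or 15 cells. No doublet caller was run. UMIs were summed per class and library, with exact Poisson, Clopper-Pearson and conditional binomial intervals (scipy 1.17.1), which cover counting error only. The rule for named genes takes Igf2bp1, every member, and of each further list up to 4 genes per class with the largest ratio. The heat shock genes, lists and limits were chosen with earlier results of these data known. The code was tested on simulated counts. The deposited counts were not normalized otherwise. edgeR 4.0.16 gave TMM factors as an alternative.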

Additional observations from a re-analysis of the deposited data

How the results depend on the processing

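Over the alternatives, the count of pairs at least 1.5-fold higher in Igf2bp1 KO was 2 to 4, against 3 as reported, except in 2 settings. It was 9 of 65 pairs when each cell was named by its own markers, where 2 pairs were also lower, Hspa1a in Leydig cells and Hspa1a in macrophages. It was 1 of 24 when the clusters of a class were given equal weight, which gives no value for spermatogonia and Sertoli cells. An alternative chosen after seeing the data counted a deep sub-cluster with protamine transcripts as spermatogonia, 4 cells of Igf2bp1 KO and 30 of Wild type. It gave 2 lower pairs, Hspa2 (−0.76) and Hspb9 (−1.14), and added Hsph1 as higher (1.09). No other alternative gave a lower pair. Hspa8 in elongating spermatids was called in every setting, at 1.45 to 2.41 on the log2 scale. The free RNA setting took off 5% of the UMIs in each germ class of each library, and a larger share was not tested. Hspa8 in round spermatids was lost under median-of-ratios factors (0.57), equal cluster weights (0.57), free RNA taken off (0.50) and a 2-fold limit, and was 1.64 with each cell named by its own markers. Hsp90ab1 in elongating spermatids became a call with that naming (0.97) and with the heat shock genes allowed in clustering (0.65). Hspa1l in spermatogonia was lost with each cell named by its own markers (0.17) and with a minimum of 200 UMIs, and had no value under the strict barcode filter. Of 366 alternative values of single pairs, 297 lay inside the reported interval, 69 outside, and none of a called pair changed sign. Thinning moved 133 of 150 shares of cells. No paired analysis was possible because each genotype has 1 library. Depth limits Hspa1a and Hspa1b in germ cells, where a count of 0 allows a low level.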
